A study of Mus musculus with 2 samples.

Results

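Elastic fibre and microfibril genes were followed across the cells of a mouse pancreatic cancer model. The 10 genes were elastin (Eln), the fibrillins Fbn1 and Fbn2, the fibulins Fbln1, Fbln2, Fbln5, Efemp1 (fibulin-3) and Efemp2 (fibulin-4), and the microfibril-associated glycoproteins Mfap4 and Mfap5. They were chosen by symbol, and all 10 were found among the 27998 genes of each library. The study profiled single cells by 10x Genomics 3′ RNA sequencing from mice of the genotype Rosa26-mTmG;Fabp4-Cre, a genotype that both groups share. In these mice Cre recombinase is driven by the Fabp4 promoter and switches a reporter to green fluorescent protein (GFP), so GFP marks cells by lineage and not by type. The tumour library, labelled as cancer-associated fibroblasts, held cells that carried both GFP and podoplanin (PDPN), a membrane mucin found on many fibroblasts and on lymphatic endothelium. They were sorted 21 days after mice of 8 weeks had received FC1245 pancreatic ductal adenocarcinoma cells orthotopically. The normal library, labelled as pancreatic stellate cells, held GFP-positive pancreatic cells of mice aged 6 to 9 weeks and had no PDPN gate. How many mice made up each library is not given in the sources used here.

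Elastic fibres give tissues recoil. Tropoelastin, the soluble product of Eln, is laid down on a scaffold of fibrillin microfibrils and crosslinked there by lysyl oxidases. Fibulin-4 brings lysyl oxidase to tropoelastin, and fibulin-5 tethers elastin to microfibrils and to cell surface integrins. Microfibrils also hold latent TGF-beta complexes through the latent TGF-beta binding proteins. In the pancreas elastic fibres lie mainly around vessels and ducts, and fibroblasts and vascular smooth muscle cells are known producers.

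There was 1 library per group, so no test of the conditions was possible and no p-value is given. Intervals are 95% intervals of counting error alone and do not cover differences between cells or between mice. Tissue was digested with collagenase IV, dispase, DNase and trypsin for the tumour library, and with pronase, collagenase P and DNase for the normal library, so digestion, gate and group cannot be told apart. Age cannot be told apart from group either, since tumour mice were sorted 21 days after implantation at 8 weeks and normal mice were aged 6 to 9 weeks. The tumour library held 33285044 unique molecular identifiers (UMIs) over 2942 barcodes and the normal library 36675424 UMIs over 5437 barcodes. Filtering left 2520 tumour cells (median 10156.5 UMIs) and 4515 normal cells (median 7045 UMIs). The libraries shared 4 barcodes, of which 2 were kept. Fibroblast-like cells, defined by 8 markers such as Col1a1, Dcn and Pdgfra, were 2224 tumour cells (88.3%) and 1499 normal cells (33.2%), with sums of 28777815 and 14419314 UMIs. Col1a1 was detected in 98.9% of the tumour and 99.2% of the normal cells of the class. Of 6 stellate cell markers, which totalled 1280 counts per 1000000 UMIs (CPM) in the tumour and 338 CPM in the normal fibroblast-like sum, the retinol esterifying enzyme Lrat had 0 UMIs in the normal sum, so the stellate label was not borne out by that gene. The tumour cells of the class lay mainly in clusters led by Ptx3 (1285 cells), Thbs4 (510 cells) and Inhba (387 cells), and the normal cells in clusters led by Abca8a (1066 cells) and Sema3c (426 cells), so cluster and library largely coincided. Pdpn, the gate of the tumour sort, was at 427 CPM in the tumour and 146 CPM in the normal sum, and Fabp4 at 61.8 and 185 CPM.

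Elastin, Fbn2 and Mfap4 were higher in tumour than in normal fibroblast-like cells, and Efemp1 and Fbln5 were lower. A gene was called higher or lower where its CPM differed by at least 2-fold, the interval of the fold excluded 1 and either sum reached 50 CPM. All 10 genes reached that level. Of them 3 were called higher, against 9.39% of the 3641 genes tested, and 2 lower, against 10.9%. Either way this is 5 of 10, where 20.3% of all genes were called. The median log2 fold of tumour over normal CPM was 0.47 over the 10 genes and -0.25 over 6819 genes with at least 20 CPM. Other scalings moved this reference: TMM put the point of no change at a log2 fold of -0.32 on the CPM scale, and the median ratio of genes put it at -0.25. Under TMM 5 of the 10 genes were higher, Efemp2 and Fbln1 being added, and 1 was lower, and over all genes the split was 512 higher and 218 lower, in place of 342 and 396. Summed over the 10 genes, the tumour sum held 7044 CPM and the normal sum 5985 CPM.

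**Figure D1:**
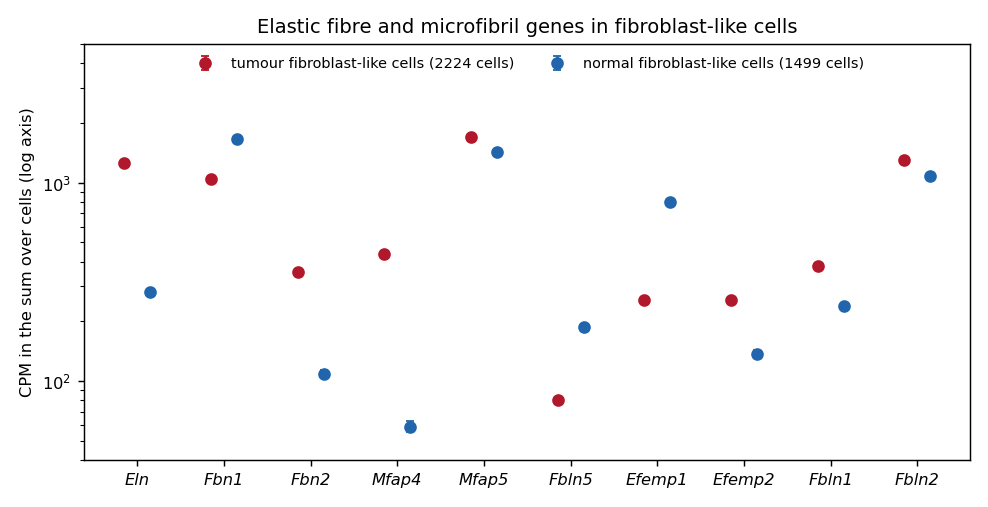
CPM of each gene in the sum over fibroblast-like cells, on a log axis, with the tumour library in red left of the normal library in blue. Bars are exact 95% Poisson intervals and are mostly smaller than the points. Mfap4, Eln and Fbn2 lie highest above their normal level, and Efemp1 and Fbln5 lowest below it.

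Eln (ENSMUSG00000029675, GRCm38 chromosome 5, 134702593 to 134747323, minus strand) encodes the elastic core of the fibre. It stood at 1255 CPM (1242 to 1268) in the tumour and 280.0 CPM (271 to 289) in the normal fibroblast-like sum. This was a 4.48-fold higher level (4.34 to 4.63) in tumour cells. Within the tumour library the Thbs4 cluster was far above the other clusters, at 2687 CPM (2647 to 2727), against 784 CPM (768 to 800) in the Ptx3 and 938 CPM (919 to 957) in the Inhba cluster. Normal cells of the Abca8a cluster held 193 CPM (184 to 202) and those of the Sema3c cluster 418 CPM (402 to 435). In these sums all 3 tumour clusters were thus above both normal ones. Female cells of the Sema3c cluster, clustered without the 10 genes, nevertheless reached 740.1 CPM. Few cells carried many of the Eln UMIs in each library, since the 5% of fibroblast-like cells with most Eln UMIs held 42.1% of them in the tumour and 37.3% in the normal library. These shares are of raw UMIs, so deeper cells weigh more. Median depth was 8222 UMIs in Ptx3 and 26389 UMIs in Inhba cells. Inhba cells were uneven, with a median of 1.43 Eln UMIs per 10000 and a 90th percentile of 20.7, whereas Thbs4 cells had a median of 22.5 and a 10th percentile of 4.56. The median was 3.03 in Ptx3 cells of the tumour, and 2.25 in Sema3c and 1.29 in Abca8a cells of normal pancreas. By median, Inhba cells were thus below Sema3c cells and close to Abca8a cells.

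The fibrillins, which form the microfibril scaffold, went in opposite directions. Fbn1 (ENSMUSG00000027204, chromosome 2, 125300594 to 125507993, minus strand), the main fibrillin of adult tissue, was at 1038 CPM (1026 to 1049) in the tumour and 1666 CPM (1645 to 1687) in the normal sum, 1.61-fold lower (1.58 to 1.63), which is short of 2-fold. The normal level came largely from 1 cluster. Fbn1 stood at 1017, 1044 and 1061 CPM in the Ptx3, Thbs4 and Inhba clusters of the tumour, and at 689.6 CPM in the Abca8a and 3206 CPM (3159 to 3253) in the Sema3c cluster of normal pancreas. In these sums the 3 tumour clusters lay within 1.04-fold of each other and between the normal ones. Clustered without the 10 genes, they held 1074 CPM (Ptx3), 959 CPM (Thbs4) and 1066 CPM (Inhba). Medians per cell were less alike, at 6.31, 9.61 and 9.16 Fbn1 UMIs per 10000 in the Ptx3, Thbs4 and Inhba clusters made with all variable genes. Fbn2 (ENSMUSG00000024598), a fibrillin best known from developing tissue, was at 354 CPM (347 to 361) in the tumour and 109 CPM (103 to 114) in the normal sum, 3.26-fold higher (3.09 to 3.44). Among clusters Fbn2 was ordered the other way round from Fbn1 in normal cells, with 154 CPM (146 to 163) in the Abca8a and 38.1 CPM (33.1 to 43.5) in the Sema3c cluster, while tumour clusters held 233 CPM (Ptx3), 568 CPM (Thbs4) and 364 CPM (Inhba). Sema3c cells thus had the highest Fbn1 and the lowest Fbn2 of the 5 clusters.

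The microfibril-associated glycoproteins also differed from each other. Mfap4 (ENSMUSG00000042436, chromosome 11, 61485431 to 61488900, plus strand) encodes a fibrinogen-like protein that binds elastin, fibrillin and integrins. It was at 438 CPM (430 to 445) in the tumour and 58.9 CPM (55.1 to 63.0) in the normal sum, 7.43-fold higher (6.93 to 7.97), the highest fold of the 10 genes. In normal cells it was rare. The 5% of normal fibroblast-like cells with most Mfap4 UMIs held 92.4% of them, against 28.3% in the tumour library, again as raw UMIs. Mfap5 (ENSMUSG00000030116, chromosome 6, 122505845 to 122529290, plus strand), which encodes MAGP-2, a small glycoprotein that binds fibrillin and Notch ligands, was at 1689 CPM (1674 to 1704) in the tumour and 1423 CPM (1404 to 1443) in the normal sum, a fold of 1.19 (1.17 to 1.21). That fold has no firm direction, because its log2 value was 0.25 in these sums and -0.04 in cells with a Pdpn UMI. Its spread across clusters was larger than that between libraries, with 1375, 2237 and 1730 CPM in the Ptx3, Thbs4 and Inhba clusters of the tumour, and 576 CPM in the Abca8a and 2757 CPM in the Sema3c cluster of normal pancreas.

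A small set of normal cells held nearly all the normal Mfap4. These cells were picked by their Mfap4 UMIs after the values had been seen, so their levels are a description. At least 3 Mfap4 UMIs were found in 58 of 1499 normal fibroblast-like cells (3.87%), which held 88.4% of that library's Mfap4 UMIs in the class, 77 cells had 1 or 2 UMIs and 1364 had none. Of the 58 cells, 39 lay in the Sema3c and 17 in the Abca8a cluster, and by sex-linked UMIs 21 were female and 32 male, so they came from more than 1 mouse. Eln was at 1079 CPM (1003 to 1158) in these 58 cells and 221 CPM (213 to 229) in the 1364 cells without Mfap4. Fbln1 was at 698 against 202 CPM and Fbln2 at 2184 against 1015 CPM. Fbn1 (2181 against 1634 CPM), Fbln5 (331 against 176 CPM) and Mfap5 (2367 against 1357 CPM) were higher as well. Efemp1 went the other way, at 569 CPM in the 58 cells against 818 CPM in the cells without Mfap4. Fbn2, at 97.0 against 110 CPM, and Efemp2, at 133 against 137 CPM, were not higher in the 58 cells. Cilp, a matrix protein first described in cartilage and among the genes that lead the tumour Thbs4 cluster, was at 1011 CPM (938 to 1089) in the 58 cells and 43.2 CPM (39.7 to 46.9) in the others. Thbs4 itself had 1 UMI in the 58 cells and 0 in the others. The median depth was 11452 UMIs in the 58 cells and 8925.5 in the others.

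Fbln5 and Efemp1 were the lower members. Fbln5 (ENSMUSG00000021186, chromosome 12, 101746565 to 101819055, minus strand) was at 79.8 CPM (76.6 to 83.2) in the tumour and 188 CPM (181 to 195) in the normal sum, 2.35-fold lower (2.22 to 2.48). Efemp1 (ENSMUSG00000020467, chromosome 11, 28853204 to 28926743, plus strand), whose product fibulin-3 binds the protease inhibitor TIMP3, was at 257 CPM (251 to 263) in the tumour and 803 CPM (788 to 817) in the normal sum, 3.13-fold lower (3.04 to 3.22). Both were low in 2 tumour clusters and not in the third. Efemp1 had 565 CPM (552 to 579) in the Ptx3 cluster, 29.2 CPM (25.2 to 33.8) in the Thbs4 and 42.5 CPM (38.6 to 46.7) in the Inhba cluster of the tumour, and 227 CPM (217 to 237) in the Abca8a and 1707 CPM (1673 to 1741) in the Sema3c cluster of normal pancreas. Fbln5 had 135 CPM (129 to 142), 38.8 CPM (34.1 to 43.9) and 39.7 CPM (35.9 to 43.7) in the same tumour clusters, and 144 CPM (137 to 152) and 256 CPM (243 to 270) in the normal ones. Ptx3 cells of the tumour therefore held more Efemp1 than normal Abca8a cells and about as much Fbln5, with intervals that overlap. With every cell of both sums weighted the same, the log2 fold was -0.95 for Efemp1 in place of -1.64, and -0.85 for Fbln5 in place of -1.23, both short of 2-fold. Endothelial markers totalled 41.9 CPM in the tumour and 169 CPM in the normal fibroblast-like sum, adipocyte markers 12.6 and 356 CPM. In normal endothelial-like cells Efemp1 was at 3.65 CPM and Fbln5 at 173 CPM, with Fbln5 at 705 CPM in a cluster of them led by Sema3g and 29.3 CPM in one led by Aqp1, in a clustering made without the 10 genes. The part of endothelial and adipocyte RNA in these gaps was not tested.

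Promoter sequences of these 2 genes are shown because they were lower together in the same tumour clusters. They are the 250 bases before the gene's start in RefSeq (GRCm38.p6), chr11:28852955-28853204 on the plus strand for Efemp1 and chr12:101819120-101819369 on the minus strand for Fbln5, each written 5′ to 3′ along its gene. Capitals mark matches on either strand to GGGCGG, the core of the binding motif of SP factors, which reads CCGCCC on the other strand. They also mark TGANTCA, in which N is any base, a pattern looser than the AP-1 motif.
Efemp1: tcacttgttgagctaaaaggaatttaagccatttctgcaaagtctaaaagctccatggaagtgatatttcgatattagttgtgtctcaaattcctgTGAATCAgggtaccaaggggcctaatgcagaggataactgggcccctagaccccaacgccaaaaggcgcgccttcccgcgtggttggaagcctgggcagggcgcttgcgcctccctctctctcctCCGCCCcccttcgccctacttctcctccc
Fbln5: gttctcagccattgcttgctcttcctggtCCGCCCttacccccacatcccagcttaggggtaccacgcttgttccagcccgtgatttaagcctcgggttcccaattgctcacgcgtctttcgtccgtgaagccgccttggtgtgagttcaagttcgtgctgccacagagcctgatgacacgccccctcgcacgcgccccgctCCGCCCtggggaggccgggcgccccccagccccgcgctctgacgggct
The Efemp1 window held 1 GGGCGG match and 1 TGANTCA match, the latter with A at N, and the Fbln5 window held 2 GGGCGG matches. Over all 32851 windows of that length 32.7% held GGGCGG and 6.75% held TGANTCA. Neither window held TATAAA or CAGAC, found in 12.4% and 42.2% of windows. A further Fbln5 window in the same table (chr12:101818485-101818734) held 0 GGGCGG and 2 CAGAC matches, the opposite of the window shown. The matches describe letters and not binding. RefSeq windows were taken for 6 of the 10 genes, Fbn2 having been left out beforehand, and the other windows are not shown.

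The remaining fibulins lay closer to their normal levels. Efemp2 (ENSMUSG00000024909, chromosome 19, 5473954 to 5482517, plus strand) was at 255 CPM (249 to 261) in the tumour and 137 CPM (131 to 143) in the normal sum, 1.86-fold higher (1.77 to 1.96), and passed 2-fold under TMM and the median ratio of genes. Fbln1 (ENSMUSG00000006369, chromosome 15, 85205949 to 85286535, plus strand), a fibulin of elastic fibres and basement membranes, was at 382 CPM (374 to 389) in the tumour and 238 CPM (230 to 246) in the normal sum, 1.60-fold higher (1.54 to 1.67), and passed 2-fold under TMM. Its tumour excess was in the Ptx3 cluster at 512 CPM and the Thbs4 cluster at 412 CPM, while the Inhba cluster at 217 CPM (208 to 226) stood no higher than the Abca8a cluster at 235 CPM (225 to 246) and the Sema3c cluster at 239 CPM (226 to 252). Fbln2 (ENSMUSG00000064080, chromosome 6, 91212455 to 91272540, plus strand), which bridges elastic fibres and basement membranes, was at 1298 CPM (1285 to 1311) in the tumour and 1084 CPM (1067 to 1101) in the normal sum. The Fbln2 log2 fold of 0.26 was -0.07 without the Inhba cluster and -0.04 with every cell weighted the same, so no direction is given. Across tumour clusters Fbln2 was lowest where Eln was highest, with 1303 CPM in Ptx3, 539.9 CPM (522 to 558) in Thbs4 and 1773 CPM (1747 to 1799) in Inhba cells.

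Shares of cells with a UMI went the same way as the levels for the 5 genes called. Each cell was thinned to 5000 UMIs, which left 1860 tumour and 1350 normal fibroblast-like cells and dropped 364 and 149 shallower ones. Mfap4 was then found in 58.5% of tumour and 7.33% of normal cells, Eln in 74.9% and 55.9%, and Fbn2 in 62.4% and 36.3%. Fbln5 was found in 26.3% of tumour and 50.0% of normal cells and Efemp1 in 40.3% and 57.9%. Without thinning the shares were 62.5% and 9.01% for Mfap4, 81.3% and 69.8% for Eln, 70.7% and 47.0% for Fbn2, 40.2% and 63.3% for Fbln5, and 50.8% and 61.2% for Efemp1. Fbn1 did not separate the libraries by share, at 93.8% (92.6 to 94.9%) of tumour and 93.3% (91.9 to 94.6%) of normal cells, although its level did. The thinned cells held a mean of 6.76 of the 10 genes in the tumour and 5.71 in the normal library. As a rough guide to free RNA, Mfap4 was found in 1 of 53 tumour macrophage-like or monocyte-like cells and in 0.143% of 1394 such normal cells, unthinned. Median depths were 7982 and 8198 UMIs in these cells, against 10446 in tumour and 9020 in normal fibroblast-like cells. The other members were found in 0.430% to 6.81% of these normal cells, Efemp2 being the highest.

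**Figure D2:**
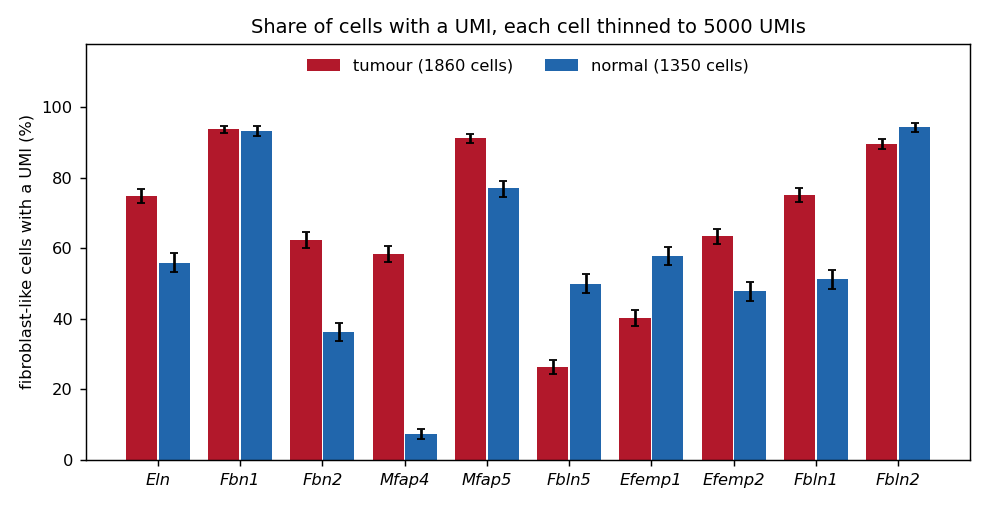
Share of fibroblast-like cells with at least 1 UMI of each gene after each cell was thinned to 5000 UMIs, tumour in red left of normal in blue, with exact 95% binomial intervals. The widest gap is that of Mfap4, at 58.5% against 7.33%, while Fbn1 and Fbln2 are found in most cells of both libraries.

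Pairs of fibroblast clusters were compared by the same 2-fold rule. The clusters were made from these cells, 5 of the 10 genes were among the variable genes that shaped them, and Eln and Mfap4 are among the 10 leading genes of the Thbs4 cluster, so the levels are a description. Between Thbs4 and Ptx3 cells of the tumour, Eln (3.43-fold), Mfap4 (3.18-fold) and Fbn2 (2.43-fold) were higher in Thbs4 cells, against 5.19% of genes, and Fbln2, Fbln5 and Efemp1 were lower, against 6% of genes. Between Sema3c and Abca8a cells of normal pancreas, Efemp1 (7.53-fold), Mfap5 (4.78-fold), Fbn1 (4.65-fold), Mfap4 (3.85-fold) and Eln (2.17-fold) were higher in Sema3c cells, against 8.49% of genes, and Fbn2 was lower, against 9.35%. Between Inhba and Ptx3 cells 0 members were higher, against 7.29% of genes, and Fbln1, Fbln5 and Efemp1 were lower, against 9.42%. Between Inhba and Thbs4 cells Fbln2 was 3.28-fold higher, against 5.01% of genes, and Eln and Mfap4 were lower, against 5.82%. Summed over the 10 genes, Sema3c cells stood highest of the 5 clusters at 9888 CPM, followed by Thbs4 cells at 8634, Inhba cells at 6859, Ptx3 cells at 6417 and Abca8a cells at 3507 CPM. The clusters with the highest sums were rich in different members: Eln was 6.42-fold and Fbn2 14.9-fold higher in Thbs4 than in Sema3c cells, while Fbn1 stood at 0.326 and Efemp1 at 0.0171 times its Sema3c level.

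When the cells were clustered again without the 10 genes, clusters with the same leading genes returned and the levels kept their order for Eln, Fbn2, Fbln2, Mfap4, Mfap5 and Efemp2. The Thbs4 cluster grew to 739 tumour cells and the Ptx3 cluster shrank to 1062. The Sema3c cluster shrank to 373 normal cells. An unnamed cluster of 32 normal and 2 tumour cells also appeared, with the adipocyte markers Car3 and Adipoq among its leading genes and fibroblast as its best class. Eln was then at 2250 CPM in Thbs4 and 811 CPM in Ptx3 cells. Efemp1 moved most, to 100.2 CPM (93.4 to 107) in Thbs4 cells, which was above the 44.5 CPM of Inhba cells. Fbn2 was 1.99-fold higher in Thbs4 than in Ptx3 cells and no longer passed 2-fold, and Efemp1 and Fbln1 were then lower in Inhba than in Thbs4 cells. Fbln1 was highest in Thbs4 cells, at 499 CPM, against 459 CPM in Ptx3 cells.

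**Figure D3:**
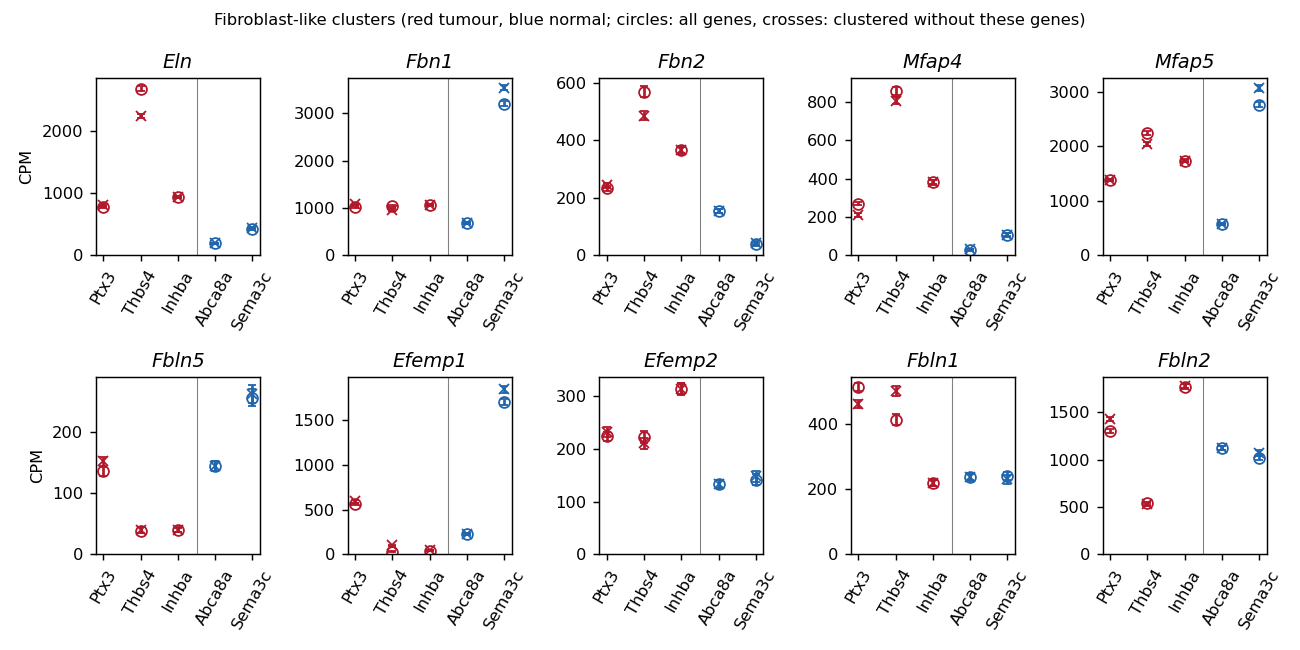
CPM of each gene in the 3 tumour clusters (red, left) and the 2 normal clusters (blue, right) of fibroblast-like cells, each panel with its own linear axis from 0 and exact 95% Poisson intervals. Circles are from clusters made with all variable genes and crosses from clusters made without the 10 genes. Eln, Fbn2 and Mfap4 peak in the Thbs4 cluster, and Fbn1, Mfap5, Fbln5 and Efemp1 in the Sema3c cluster.

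Set against the normal clusters, the tumour clusters were not alike. Mfap4 was higher in each of the 3 tumour clusters than in either normal cluster, by 2.53-fold in the closest pair (Ptx3 over Sema3c, 1.95-fold when clustered without the genes) and 31.0-fold in the widest (Thbs4 over Abca8a). Ptx3 cells were not above the female cells of the Sema3c cluster, at 211 and 219.8 CPM when clustered without the genes. Eln ranged from 1.87-fold to 13.9-fold over the same pairs, and Fbn2 from 1.51-fold to 14.9-fold. Efemp1 was 2.49-fold higher in Ptx3 than in Abca8a cells and lower in the other 5 pairs. Fbn1 was 1.47-fold to 1.54-fold higher against Abca8a cells, short of 2-fold, and 0.317 to 0.331 times its level in Sema3c cells. Over Abca8a cells, Ptx3 cells had 5 members higher and 0 lower, where 9.19% and 11.6% of all genes were called. Thbs4 cells had 4 higher and 3 lower over Abca8a cells, where these shares were 10.7% and 13.1%, and Inhba cells 5 and 2, where they were 12.6% and 19.3%. Over Sema3c cells, Ptx3 cells had 3 higher and 3 lower (10.9% and 8.71% of all genes), Thbs4 cells 3 and 3 (13.2% and 12.3%), and Inhba cells 4 and 3 (14.3% and 15%). In the clustering without the 10 genes Ptx3 cells had 4 higher and 0 lower over Abca8a cells, Fbln1 falling to 1.93-fold, and 2 and 3 over Sema3c cells. Thbs4 cells then had 5 and 3 over Abca8a cells and 4 and 4 over Sema3c cells, and the counts of Inhba cells did not move. The shares of all genes given above belong to the clusters made with all variable genes. They were not computed for the clustering without the 10 genes, so its counts cannot be read against a background. These 6 comparisons share their clusters.

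Fibroblast-like cells were not the only cells with these transcripts. In the tumour library they held 92.5% of Fbln5 UMIs and at least 97.9% of the UMIs of every other member, beside 89.9% of all UMIs. In the normal library they held 41.8% of all UMIs, at least 95.3% of the UMIs of Fbn1, Fbn2, Fbln1, Efemp1, Mfap4 and Mfap5, and 90.4% of those of Efemp2. Endothelial-like cells, which line blood vessels, held 26.1% of normal Fbln2 UMIs, 26.4% of Fbln5 and 10.9% of Eln UMIs, and pericyte-like or smooth muscle-like cells 7.33% of Eln UMIs. The 16 normal mesothelial-like cells, too few for a level, held 3.86% of Fbln1 and 2.13% of Efemp1 UMIs. The endothelial-like cells had Fbln2 at 978 CPM (953 to 1004), close to the 1084 CPM of normal fibroblast-like cells, and Fbln5 at 173 CPM (162 to 184). The tumour library had too few endothelial-like cells for a level.

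**Figure D4:**
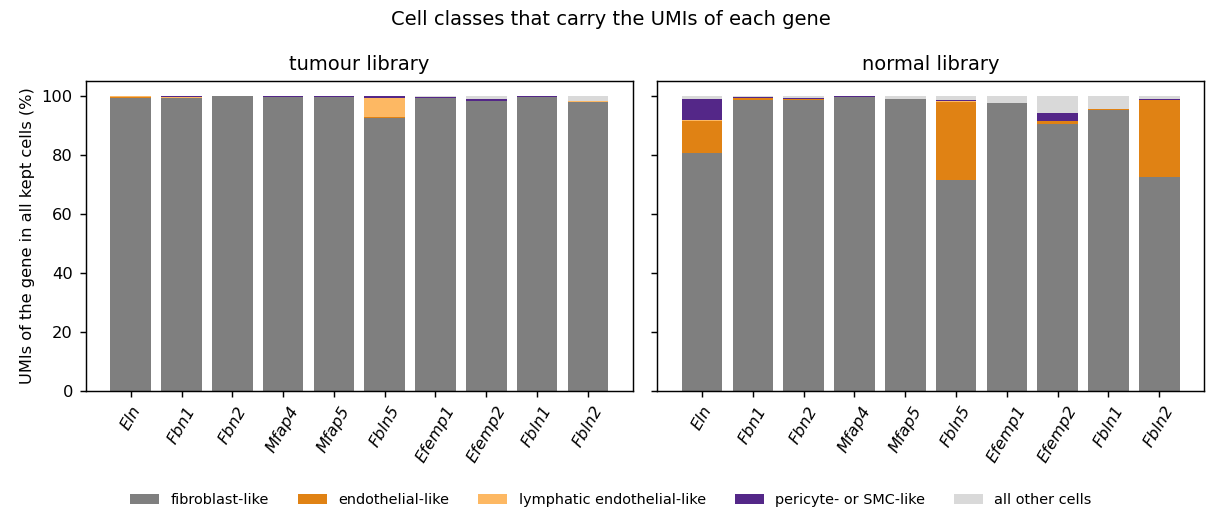
Share of each gene's UMIs that came from each class of cells, over all kept cells of the tumour library (left) and the normal library (right). Endothelial-like cells hold 26.1% of Fbln2 and 26.4% of Fbln5 UMIs in the normal library, and lymphatic endothelial-like cells 6.65% of Fbln5 UMIs in the tumour library.

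Vessel cells were uneven in turn. In the clustering without the 10 genes, endothelial-like cells split into a cluster of 361 cells led by Sema3g and Gja4, genes of arterial endothelium, and 1007 cells led by Aqp1 and Emcn. Fbln5 was at 705 CPM (659 to 754) in the Sema3g and 29.3 CPM (24.6 to 34.6) in the Aqp1 cluster, whereas Fbln2 was at 912 and 970 CPM. Fbn1 was at 99.1 and 16.1 CPM. Fbln5 and Fbn1 thus set these clusters apart, and Fbln2 was close in both. The median depth was 2710 UMIs in the Sema3g and 4335 in the Aqp1 cluster. Among the 153 normal pericyte-like or smooth muscle-like cells Eln was at 379 CPM (341 to 420). Divided after the values were seen, 67 cells rich in Myh11, the smooth muscle myosin, had Eln at 633 CPM (568 to 704), and 61 cells rich in Abcc9, a pericyte channel subunit, at 81.8 CPM (49.3 to 128), at median depths of 8040 and 3378 UMIs. The other normal cells of the class included 20 with endothelial genes among their leading genes. In the 72 lymphatic endothelial-like cells of the tumour library, Eln was at 250.2 CPM (214 to 291), Fbln5 at 246 CPM (210 to 286), Fbln2 at 229 CPM (195 to 269) and Fbn1 at 171 CPM (141 to 206). Efemp1 and Mfap4 had 0 UMIs there, with an interval that reaches 5.49 CPM.

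**Figure D5:**
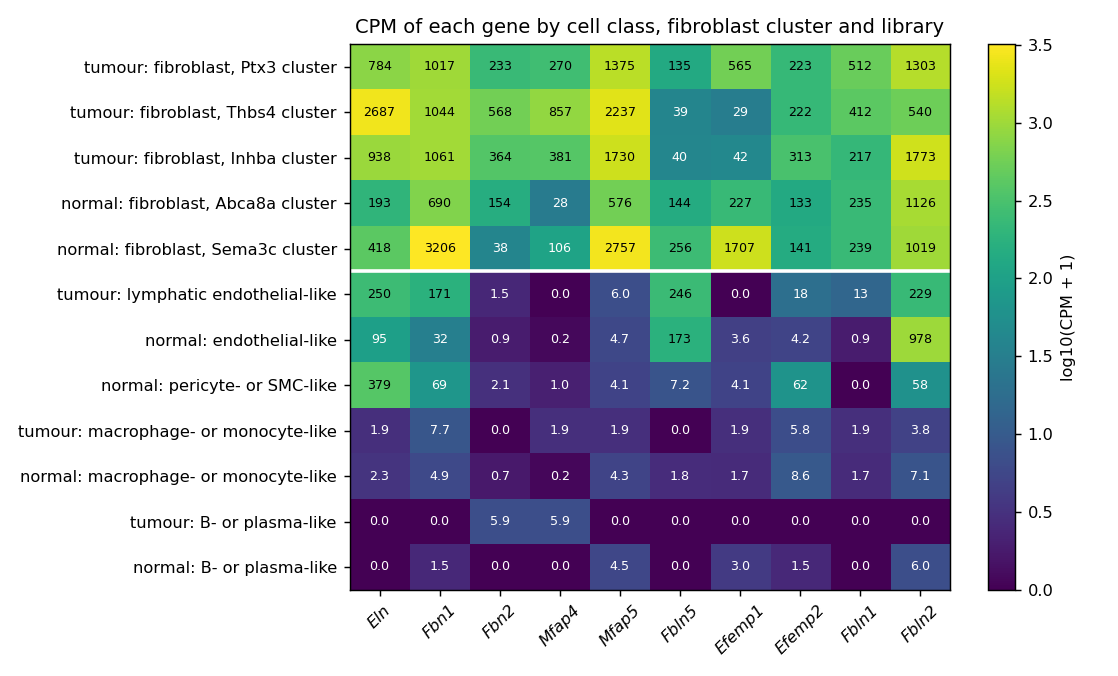
CPM of each gene in the 5 fibroblast-like clusters (above the white line) and in other classes with at least 50 cells, coloured by log10(CPM + 1), with the CPM written in each cell and the tumour library above the normal one. Macrophage-like and B-like cells hold at most 8.63 CPM of any gene, while normal endothelial-like cells hold 978 CPM of Fbln2.

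Macrophage-like and B-like cells were taken as a guide to free RNA, but whether they express these genes themselves was not tested. Normal macrophage-like or monocyte-like cells held 4.76% of the Efemp2 UMIs of their library. For the other members this share was 0.168% (Efemp1) to 0.583% (Fbln5), so Efemp2 did not share their level. Summed over the 10 genes, macrophage-like or monocyte-like cells held 26.9 CPM in the tumour and 33.3 CPM in the normal library, and B-like or plasma-like cells 11.7 and 16.5 CPM. These are far below the 7044 and 5985 CPM of the fibroblast-like sums. Fbn2, Fbln1, Mfap4, Mfap5 and Efemp1 had no more than 13.4 CPM in any other class with at least 50 cells, whereas Eln, Fbn1, Fbln2 and Fbln5 passed 50 CPM in at least 1 class of vessel cells and Efemp2 in pericyte-like or smooth muscle-like cells.

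The normal library pooled mice of both sexes, which gave a view of the spread within it. Of the normal fibroblast-like cells 493 had Xist and no Y-linked UMIs and 771 had Y-linked UMIs and no Xist, while 2115 of the 2224 tumour cells had Xist and 0 had a Y-linked UMI. In the clustering without the 10 genes, in which the Sema3c cluster held 373 normal cells, the sexes were compared within clusters. Within the Abca8a cluster, female and male cells lay within 1.5-fold for 9 of the 10 genes, the exception being Mfap4 at 22.4 CPM in female and 40.3 CPM in male cells. Within the Sema3c cluster they did so for 6 genes, and Mfap4 was at 219.8 CPM in 97 female and 72.4 CPM in 247 male cells, a female over male fold of 3.04 (2.54 to 3.63). Mfap4 was found in only 60 of the 373 normal cells of that cluster, so the intervals of its folds here are too narrow. Eln was at 740.1 CPM in female and 343 CPM in male cells of that cluster, 2.16-fold (1.97 to 2.36), whereas Fbln2 was at 747 and 1187 CPM and Fbn2 at 26.3 and 46.9 CPM. The Sema3c cluster held 20.6% of the female and 33.4% of the male cells of the 2 clusters, and sex cannot be told apart from mouse here. The tumour clusters of the same clustering were then set against the female Sema3c cells, a comparison chosen after the values were seen. Mfap4 was at 211 CPM in Ptx3 cells of the tumour and 219.8 CPM in the female Sema3c cells, 0.958-fold (0.843 to 1.09), while Thbs4 cells were 3.67-fold and Inhba cells 1.74-fold higher. Eln was 1.10-fold (1.02 to 1.18) higher in Ptx3, 3.04-fold in Thbs4 and 1.27-fold in Inhba cells. The excess of Mfap4 and Eln over these normal cells thus passed 2-fold in the Thbs4 cluster alone, whereas Fbn2 was 9.23-fold to 18.4-fold higher in the 3 tumour clusters. Against the female normal cells alone, the tumour log2 fold was 1.89 for Eln, 1.59 for Fbn2, 2.52 for Mfap4 and -1.34 for Efemp1, while that of Fbln5 was -0.90, short of 2-fold.

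The other genes of the pathway were read from 5 lists of known partners, by the 2-fold rule that called 9.39% of all genes higher and 10.9% lower. Measured here means at least 20 CPM in either sum, whereas a call and the shares of all genes need 50 CPM, which was reached by 13 crosslinking and assembly, 7 latent TGF-beta, 3 ADAMTS, 10 elastolytic and 6 receptor genes. Crosslinking and assembly had 15 measured genes, of which 3 were higher and 3 lower (median log2 fold 0.50). Lox, the lysyl oxidase that crosslinks elastin and collagen, was at 632 CPM in the tumour and 157 CPM in the normal sum, 4.02-fold higher (3.84 to 4.20). The proteoglycan Bgn, which binds tropoelastin, was 4.12-fold higher (4.06 to 4.19), at 4519 against 1096 CPM, and Fkbp10, a chaperone of collagen and elastin, 2.19-fold higher. Lower were Tnxb, tenascin X, at 291 against 888 CPM (3.06-fold, 2.97 to 3.14), Emilin2, an elastic fibre glycoprotein, at 71.1 against 212 CPM (2.98-fold), and Hspg2, perlecan, 2.22-fold. Emilin2 also stood at 388 CPM in normal macrophage-like cells, whose markers totalled 19.9 CPM in the tumour and 308 CPM in the normal fibroblast-like sum, and their part in the Emilin2 gap was not tested. Among fibroblast-like clusters Emilin2 was at 426 CPM in normal Sema3c cells, and at 76.0 CPM in Abca8a cells. Loxl1, the elastin-directed lysyl oxidase, was at 916 against 521 CPM, 1.76-fold.

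Latent TGF-beta complexes, held by microfibrils, were split by member. There were 3 higher and 2 lower among 7 measured genes (median log2 fold 0.93). Ltbp2, a binding protein of fibrillin and fibulin-5 that does not hold latent TGF-beta, was at 75.3 CPM in the tumour and 1.39 CPM in the normal sum, 54.3-fold higher (35.1 to 89.1) with 20 UMIs in the normal sum. It lay in the Thbs4 cluster at 192 CPM and the Inhba cluster at 85.5 CPM, against 5.10 CPM in Ptx3 cells. The ligands Tgfb1 and Tgfb3 were 7.71-fold (6.81 to 8.75) and 7.35-fold (6.45 to 8.41) higher. Ltbp4, which with fibulin-5 carries elastin to microfibrils, was at 193 against 670 CPM, 3.48-fold lower (3.36 to 3.59), and Ltbp1 2.52-fold lower (2.39 to 2.66). Ltbp4 and Fbln5, partners in elastin assembly, were thus both lower in the tumour sum while Eln was higher. For Fbln5 the call held under 7 of 12 alternatives. Ptx3 cells did not have less Fbln5 than Abca8a cells, at 152 and 144 CPM when clustered without the 10 genes. Eln was at 811 and 196 CPM in the same cells, and normal Sema3c cells held Fbln5 at 262 CPM. Ltbp4 also stood at 856 CPM in normal endothelial-like cells, whose markers were higher in the normal fibroblast-like sum, and their part in its gap was not tested. Over fibroblast-like clusters Ltbp4 was at 217, 225 and 140.4 CPM in Ptx3, Thbs4 and Inhba cells of the tumour, and at 716 and 600.3 CPM in Abca8a and Sema3c cells of normal pancreas.

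Among 6 measured ADAMTS and ADAMTS-like genes, whose products bind or process fibrillin, 2 were lower and 0 higher (median log2 fold -1.31). Adamtsl3 was at 21.1 CPM in the tumour and 140.4 CPM in the normal sum, 6.65-fold lower (6.07 to 7.29), and Adamts10 was 2.54-fold lower. Adamtsl4 was at 6.95 against 26.1 CPM, below the level for a call, Adamtsl1 at 74.7 against 91.9 CPM, and Adamtsl2, with the highest fold of the list, at 27.4 against 12.3 CPM. Elastolytic enzymes and inhibitors had 11 measured genes, with 1 higher, 1 lower and a median of 0.62. The higher was Timp1, an inhibitor of metalloproteinases, at 1598 against 42.8 CPM, 37.3-fold (34.5 to 40.5). The collagenolytic and elastolytic cathepsin Ctsk was at 385 against 218 CPM. The lower was Cela1, a pancreatic elastase of acinar cells, at 4.38 against 64.2 CPM, and the acinar Cela2a was at 0.834 against 25.5 CPM. Acinar markers, Cela1 among them, totalled 54.2 CPM in the tumour and 406 CPM in the normal fibroblast-like sum, and their part in the Cela1 gap was not tested. Receptors had 9 measured genes, a median of 0.24 and 0 lower. The 2 higher were Itga5, the fibronectin receptor integrin chain, at 138 against 42.4 CPM (3.27-fold, 3.00 to 3.56), and the galectin Lgals3 at 64.9 against 28.2 CPM (2.31-fold). The integrin chain Itgb1 was at 583 against 693 CPM and the sialidase Neu1 at 22.0 against 26.7 CPM, both short of 2-fold.

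For each member the 2 genes with the most similar pattern were found by Pearson's r of log2(CPM + 10) over 12 units, the 5 fibroblast-like clusters and 7 other classes by library, among 6241 genes. All 12 units come from 2 libraries and their depths differ, so the values are a description. Mfap4 was most like Cilp (r = 0.98) and the homeobox gene Prrx2 (0.98), and Efemp1 most like the scavenger receptor gene Scara5 (0.99) and Nova1 (0.98). Fbln1 was most like Mmp2 and Lum, Efemp2 like Col1a2 and Ccdc80, Fbn1 like Aebp1 and Antxr1, Fbn2 like Cdh11 and Tpbg, and Mfap5 like Mmp23 and Dclk1, all at 0.98 or 0.99. Eln was most like Adgra2 (0.98) and Ppic (0.96), Fbln2 like Grb10 (0.97) and Slc43a3 (0.96), and Fbln5, with the lowest values, like Fyn (0.94) and Nsg1 (0.94). Among the members themselves r ran highest between Fbln1 and Mfap5 (0.98) and lowest between Mfap4 and Fbln5 (0.34).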

How the data were processed

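The authors deposited raw UMI counts per gene and barcode for 2 libraries, made with Cell Ranger 3.1.0 on mm10 per the submitters' processing notes. The deposited counts are not normalized. Barcodes with at least 500 genes, 1000 UMIs and at most 10% mitochondrial UMIs were kept, and 53 tumour and 101 normal doublets (2.06% and 2.19%) were removed. Scrublet marked 0.0777% of the tumour cells at its own threshold, under a limit of 0.5%, so the top scores at 0.8% per 1000 cells were removed there. Both libraries were clustered together in scanpy 1.11.5 without integration, with 10000 counts per cell, 2000 variable genes, 30 components, 15 neighbours and Leiden at a resolution of 0.5 (igraph 0.11.9). A cluster was named for the class with the highest mean detection of its markers, provided that at least 3 of them were found in 25% of its cells and no other class had more markers among its 10 leading genes.

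Counts were summed per class, cluster and library and scaled to 1000000 (CPM). A fold divides tumour by normal CPM and has an exact Poisson interval (scipy 1.17.1). Shares have exact Clopper-Pearson intervals, and UMIs from cells of 1 library are not independent mice. Units under 50 cells were left out. On simulated sums with 200 changed genes among 3308, 49 of 50 genes raised 2.5-fold, 48 of 50 lowered to 0.4 and all 100 changed 4-fold were called, with 0 of 3108 unchanged genes. These sums held Poisson counting error alone, with no spread between cells, mice or libraries. They check the calling rule and cannot measure false calls between the 2 libraries.

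The members, lists and tests were chosen with earlier results of these data known. Named were all members, the 2 highest and 2 lowest measured genes of each list, the 2 genes most like each member, the gates, the leading genes of clusters and class markers. Loxl1, the other genes behind a list's counts (Fkbp10, Hspg2, Adamts10 and Tgfb3) and the genes shown with the Mfap4 cells were added after their values were seen, as were the splits of normal cells by Mfap4, of mural cells and of clusters by sex, with tumour clusters set against female normal cells. Reads of genes that overlap Eln, Fbn1, Fbn2, Efemp2 and Mfap4 on the other strand cannot be told apart unless counting used strand, which is not given in the sources used here. Coordinates are from GENCODE vM21 (GRCm38, the assembly of mm10). A planned description of protein sequences was not made. Alternatives changed filters, doublets, resolution, scaling, cell weights and the cells counted.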

Additional observations from a re-analysis of the deposited data

How the results depend on the processing

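Eln, Fbn2 and Mfap4 were at least 2-fold higher under all 12 alternatives that give a fold (strict and lenient cell filters, doublets kept, a resolution of 1, clustering without the 10 genes, TMM, median ratio, equal cell weights, no Inhba cluster, pericyte-like cells added, cells with a Pdpn UMI, female normal cells), with ranges of log2 fold of 1.89 to 2.49, 1.38 to 2.03 and 2.52 to 3.22. Efemp1 was at least 2-fold lower under 11 and Fbln5 under 7 of the 12, and the cause was not tested. Members higher numbered 5 under TMM, in place of 3. Members lower, 2 in these sums, numbered 1 under TMM, under the median ratio, without the Inhba cluster and against female normal cells, and 0 with equal cell weights. Over all genes 218 were lower under TMM and 250 under the median ratio, in place of 396, and 512 and 450 were higher, in place of 342. With a minimum of 20 CPM, which tests more genes, 518 were higher and 777 lower. All 20 shares of cells with a UMI were lower after thinning. No called value changed its direction. No paired analysis was possible because the labels give 1 library per group. Depth limits the classes under 100 cells, where 3 UMIs are 4.47 CPM or more, and mice cannot be told apart within a library beyond their sex.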
